A study of Mus musculus with 12 samples.

Results

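The testis forms of energy enzymes are encoded by genes that germ cells switch on in place of, or beside, the forms used by other tissues. The 9 followed here were Aldoart1, Gapdhs, Pgk2, Eno4 and Ldhc of glycolysis, Pdha2 of the pyruvate dehydrogenase complex, and Cyct, Cox6b2 and Cox8c of the respiratory chain. They were taken by gene symbol from a table of 20788 genes, and all 9 were found. Another 14 genes, somatic forms of the same families, served as reference.

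The RNA came from whole testes of 8-week-old F1 mice (ICR in the study's methods, "IRC mouse" in the labels), sequenced as 4 groups of 3 libraries. According to the methods, the fathers were males injected in the testis with lentivirus at 4 weeks and mated to untreated females, whereas the design text says that the F1 testes themselves received virus. The knockdown group stood for an LV3-type vector carrying a mixture of short hairpin RNAs against the long non-coding RNA lncRNA5251, and its control 3NC for the LV3 vector alone. The overexpression group stood for an LV5 vector with lncRNA5251, and its control 5NC for the LV5 vector alone. Every group thus carried a virus history, and no group without virus was among the samples. Nothing in the labels ties the 3 libraries of each group to different mice, and the p-values therefore measure a spread between libraries that may be technical in part. The level of lncRNA5251 itself was not analysed here.

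Total estimated reads per library ran from 12719699 to 15771655, with a median of 15273158. Germ cell markers of the labelled tissue were high, and 8 elongating spermatid genes summed to between 15632 and 21911 CPM (reads scaled to library size, with TMM factors between libraries) and 8 spermatocyte genes to between 1395 and 1932. A pair of libraries stood apart in immune markers, 3NC replicate 2 and knockdown replicate 1. Their summed CPM of 7 white blood cell genes was 162 and 132, against 5.55 to 14.5 in the other 10 libraries, and that of 6 macrophage genes was 174 and 194, against 53.7 to 77.1. No gene of either list was at 0 in every library. Markers of the epididymis, the neighbouring duct, also differed: 6 genes summed to 288 CPM in 5NC replicate 2 and 122 in 5NC replicate 3, to 13.7 to 75.3 in 5NC replicate 1 and the 3NC libraries, to 1.06 to 17.2 in knockdown and to 0.986 to 1.27 in overexpression. Libraries also differed in how read number followed base composition: the slope of log2 CPM on a gene's GC content, each gene taken relative to its mean, was between 0.048 and 0.182 per 10 GC points in 7 libraries and between -0.205 and -0.129 in the other 5 (3NC replicates 2 and 3, 5NC replicates 2 and 3, overexpression replicate 3). Values of these libraries are given beside the results they touch.

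As background, spermatocytes and spermatids live largely on lactate supplied by Sertoli cells, while the mature sperm tail uses both glycolysis, along the principal piece, and respiration, in the mitochondria of the midpiece. The somatic genes Pgk1 and Pdha1 lie on the X chromosome, which is shut down during meiosis, and their autosomal retrogenes Pgk2 and Pdha2 are expressed instead. In bulk testis RNA, fewer germ cells and less RNA per germ cell cannot be told apart.

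Chromosome 7 holds 3 of the members, Cox6b2 at 4751792-4753094, Gapdhs at 30729779-30744791 and Ldhc at 46861263-46878147 (GRCm38.p6 gene spans, RefSeq). Ldhc lies close to its somatic form Ldha at 46842274-46855627. Pgk2, at 40207018-40208609 on chromosome 17, and Pdha2, at 141210004-141212355 on chromosome 3, have their somatic forms on the X chromosome. Promoter windows were found for 7 of the 9 members, and Aldoart1 and Cox8c had no entry. The 100 bases before the RefSeq start are shown for Ldhc, the member of highest level, and Pgk2, the autosomal copy of an X-linked gene, each with its somatic form below it so that the pair can be compared, and for Pdha2, whose window alone among those of the members holds TATAAA. Ldhc and Ldha each have another RefSeq start with a window, 46861487 and 46847082, and for both the farther upstream of these starts was used. The Ldha start used, 46845804, still lies inside the gene span given above. Among these starts of Ldhc and Ldha, only 46847082 matched the first bases of a GENCODE transcript. The sequences read 5′ to 3′ on the gene's strand, from GRCm38.p6. Capitals mark the letters TGACGT (the first 6 letters of a cAMP response element, TGACGTCA), GGGCGG (a GC box), CCAAT and TATAAA, searched on both strands, and overlapping matches are merged.
Ldhc, chr7:46861163-46861262, plus strand: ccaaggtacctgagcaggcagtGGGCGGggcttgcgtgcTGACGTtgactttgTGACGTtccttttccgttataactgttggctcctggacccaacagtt
Ldha, chr7:46845704-46845803, plus strand: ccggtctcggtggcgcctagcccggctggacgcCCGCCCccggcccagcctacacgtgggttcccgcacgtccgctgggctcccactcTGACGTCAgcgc
Pgk2, chr17:40208610-40208709, minus strand: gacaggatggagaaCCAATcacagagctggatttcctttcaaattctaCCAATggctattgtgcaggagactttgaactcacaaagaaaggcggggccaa
Pgk1, chrX:106187000-106187099, plus strand: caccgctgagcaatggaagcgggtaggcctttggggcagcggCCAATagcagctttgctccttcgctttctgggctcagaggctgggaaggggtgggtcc
Pdha2, chr3:141212356-141212455, minus strand: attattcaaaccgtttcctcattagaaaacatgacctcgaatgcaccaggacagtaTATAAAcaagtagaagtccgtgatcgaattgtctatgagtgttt

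In the Ldhc window, TGACGT began 61 and 47 bases before the start and GGGCGG 78 bases before it, whereas the Ldha window held the full palindrome TGACGTCA 12 bases before its start, and GGGCGG on the opposite strand, 67 bases before it. Pgk2 carried CCAAT 86 and 52 bases before the start, and Pgk1 once, 58 bases before. The TATAAA of Pdha2 began 44 bases before its start. Of all 32851 windows of 100 bases, 4.09% held TGACGT, 1.15% TGACGTCA, 24.7% GGGCGG, 18.9% CCAAT and 5.56% TATAAA. The dinucleotide CG occurred 5 times in the Ldhc window against 13 in that of Ldha, and 1 time in Pgk2 against 4 in Pgk1. The windows before the other starts of Ldhc and Ldha held none of these motifs and 1 and 5 CG, so the values of this pair depend on the start taken. These matches describe letters only.

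The 9 genes spanned a wide range of levels. On the authors' per-length scale (RPKM, reads scaled to gene length and library size), Ldhc, the sperm lactate dehydrogenase, was by far the most abundant, with a mean of 2830 ± 145 (SD, n = 12 libraries) and a rank of 6 or 7 among all genes in every library. Gapdhs, the sperm glyceraldehyde-3-phosphate dehydrogenase that is bound to the fibrous sheath of the tail, followed at 908 ± 162. Cox8c, a testis subunit of cytochrome c oxidase, stood at 765 ± 108 and Pgk2, the phosphoglycerate kinase of spermatocytes and spermatids, at 635 ± 60.2. Cox6b2, another testis subunit of cytochrome c oxidase, was at 371 ± 68.2, and Cyct, the testis cytochrome c, at 147 ± 30.4. The lowest were Pdha2, the testis E1 alpha subunit of pyruvate dehydrogenase, at 102 ± 5.37, Aldoart1, an aldolase A retrogene, at 82.5 ± 7.12, and Eno4, a testis enolase, at 17.1 ± 2.71.

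In that order, the ranges over the 12 libraries did not overlap between Ldhc and Gapdhs, Pgk2 and Cox6b2, Cox6b2 and Cyct, Cyct and Pdha2, or Aldoart1 and Eno4. The other neighbours did overlap. Gapdhs and Cox8c were the closest, with Gapdhs above Cox8c in 9 of 12 libraries, while Cox8c was above Pgk2 and Pdha2 above Aldoart1 in 12 of 12. The 9 genes together took between 0.55% and 0.671% of the reads of a library, and Ldhc alone between 0.278% and 0.341%. Both lowest shares were in 3NC replicate 2.

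**Figure D1:**
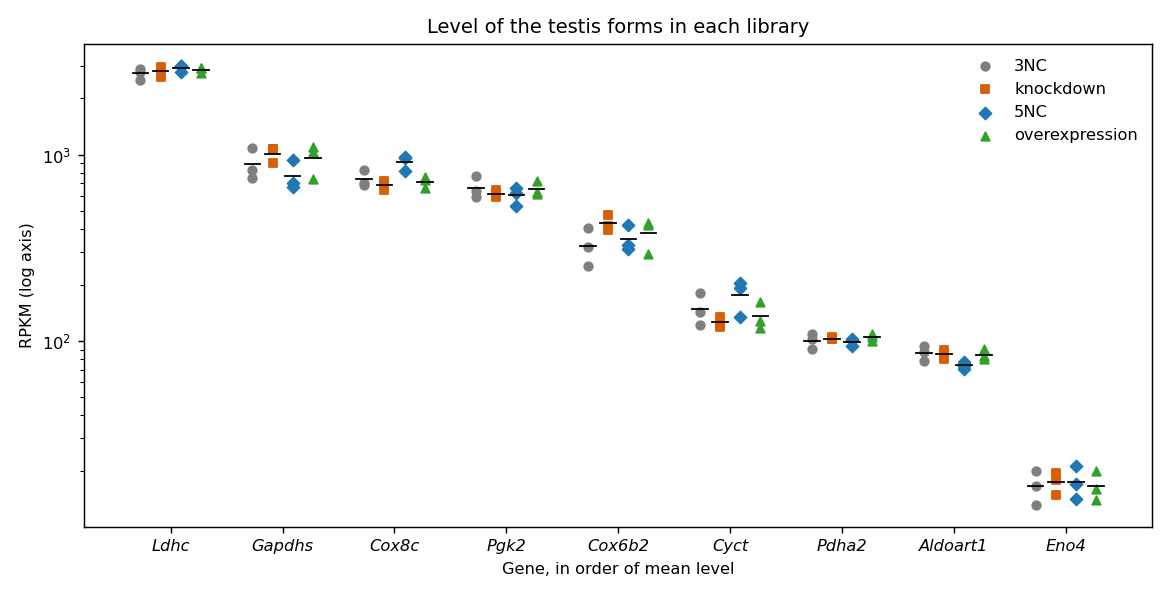
Level of each testis form (RPKM, log axis) in the 12 libraries, with genes in order of mean level; each point is 1 library, coloured by group, and bars are means of 3 libraries. Ldhc lies at 2523 to 2990, apart from all others, and the points of the 4 groups lie close together within each gene.

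Steadiness across libraries differed between members. The coefficient of variation of RPKM was 5.11% for Ldhc and 5.27% for Pdha2, lower than in all but 4.23% and 4.99% of the 6690 tested genes with a mean RPKM of at least 10, whose median was 11.5%. Aldoart1 (8.64%) and Pgk2 (9.48%) also varied less than that median. By contrast, Cyct (20.7%), Cox6b2 (18.4%), Gapdhs (17.9%), Eno4 (15.8%) and Cox8c (14.2%) varied more. In RPKM, the span from the lowest to the highest library was 1.19-fold for Ldhc, 1.64-fold for Gapdhs, 1.74-fold for Cyct and 1.88-fold for Cox6b2. RPKM carry no TMM factors, so these values and ranks depend on the scale. In TMM-scaled CPM, Ldhc ran more widely, from 2635 to 3463, and so did Pdha2, from 189 to 252. Both were lowest in 3NC replicate 2, and coefficients of variation were not computed in CPM.

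Within its family, the testis form held most of the RPKM in 7 of the 9 families. Over the 12 libraries the median share of the testis form was 97.6% for Pgk2 (with Pgk1), 96.6% for Pdha2 (with Pdha1), 93.3% for Cox8c (with Cox8a and Cox8b), 86.2% for Cyct (with Cycs), 85.4% for Gapdhs (with Gapdh), 83.6% for Cox6b2 (with Cox6b1) and 81.2% for Ldhc (with Ldha and Ldhb). The other 2 families went the other way. Aldoart1 held a median of 22.7% beside Aldoa and Aldoc, and Eno4 9.02% beside Eno1, Eno2 and Eno3. In those families the ubiquitous forms were high, with Aldoa at a mean RPKM of 277 and Eno1 at 131. Ldha, which is also active in germ cells, stood at 592 ± 24.4, so that the lactate dehydrogenase family had a strong somatic form beside Ldhc. The counts behind Gapdh, Pdha1 and Eno1 held fractions of reads in 12 of 12 libraries, those of Eno4 in 5 and those of Aldoart1 and Aldoa in 2, as can occur where reads are divided between similar sequences. Shares of these families are therefore less certain than those of Pgk2, Ldhc, Cyct, Cox6b2 and Cox8c, whose family counts were whole.

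The lowest shares of Pgk2 and Gapdhs fell in the libraries where their somatic forms were highest. Pgk1 was at 65.6 RPKM in 3NC replicate 2 and 42.5 in knockdown replicate 1, against 12.3 to 17.1 in the other 10 libraries. Gapdh stood at 305 and 281 in this pair, against 122 to 174.5 elsewhere. In the same pair the share of Pgk2 was 90.7% and 93.3%, where the other 10 libraries lay between 97.1% and 98.4%, and that of Gapdhs was 71.2% and 76.2%, where the others lay between 81.3% and 87.3%. These are the libraries with the high white blood cell and macrophage sums, and the part of those cells in the shares was not tested. Pgk2 itself, at 636 and 595 RPKM, lay inside the range of the others in both. The lowest share of Cox6b2, 64.0% in 3NC replicate 2, came with both sides at their extreme, Cox6b2 at its lowest (252 RPKM) and Cox6b1 at its highest (142 RPKM), and Pdha2 was likewise at its lowest there (90.4 RPKM).

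**Figure D2:**
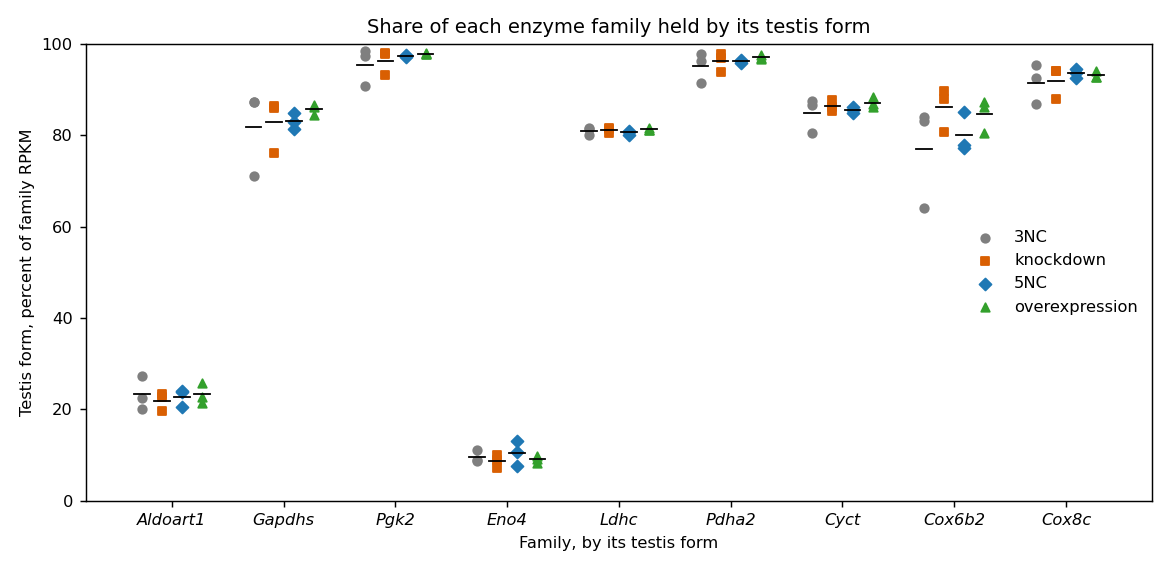
Share of each enzyme family's summed RPKM held by its testis form, in percent, for 12 libraries; each point is 1 library, coloured by group, and bars are means of 3 libraries. The testis form is above 60% in 7 families in every library and below 30% for Aldoart1 and Eno4, and the low outlying points of Pgk2, Gapdhs, Pdha2 and Cox8c are 3NC replicate 2 and knockdown replicate 1.

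Gapdhs and Cox6b2 were higher in the libraries of positive GC slope. In the 5 libraries of negative slope Gapdhs lay between 873 and 1175 CPM, and in the 7 of positive slope between 1193 and 1496. Cox6b2 lay between 94.8 and 136 CPM in the former and between 156 and 201 in the latter. For both genes the 2 ranges were apart, as they were for 11.2% of all genes tested. Their GC contents, 55.0% and 55.7%, were the highest among the members, and the median of the genes used for the slope was 49.5%. Cyct, with the lowest GC content at 42.3%, went the opposite way, with 69.4 to 103 CPM in the libraries of negative slope and 62.8 to 73.3 in those of positive slope, which overlapped. All 3 knockdown libraries had a positive slope, against 1 of the 3 3NC libraries, and 2 of the 3 overexpression libraries, against 1 of the 3 5NC libraries, so the slope is partly confounded with both comparisons.

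**Figure D3:**
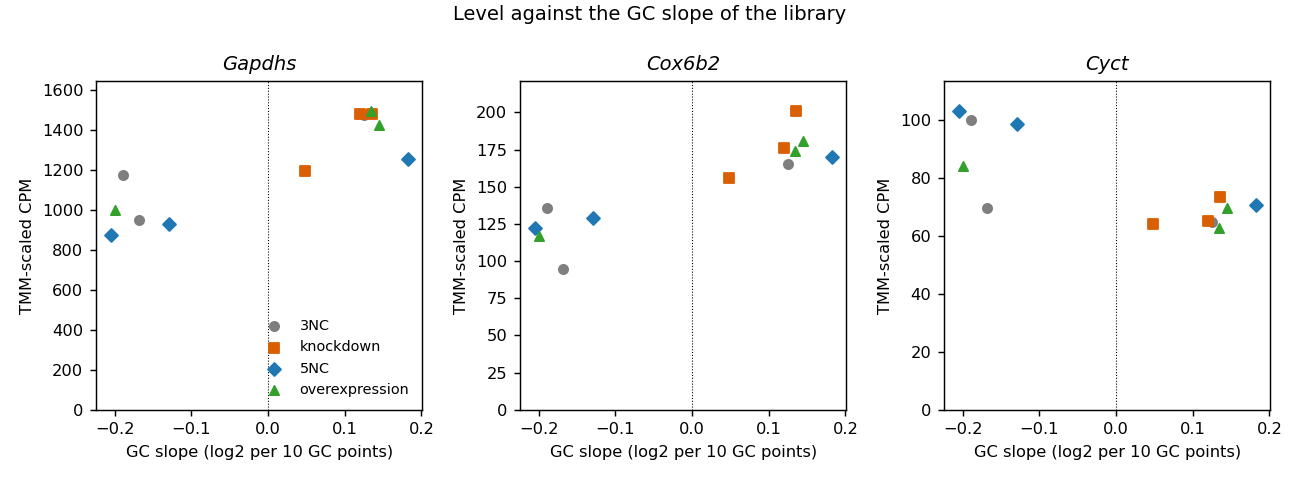
TMM-scaled CPM of Gapdhs, Cox6b2 and Cyct (axes from 0) against the slope of log2 CPM on GC content of the same library, in log2 units per 10 GC points; each point is 1 library, coloured by group. Gapdhs and Cox6b2 are higher in every library of positive slope, between 0.048 and 0.182, than in any of negative slope, and Cyct lies mostly the other way.

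The first comparison asked whether the enzymes differed between the virus directed against lncRNA5251 and its vector control. None of the 9 passed in the knockdown group against 3NC (edgeR quasi-likelihood test, Benjamini-Hochberg adjustment over 16388 genes, threshold 0.05), with the smallest adjusted p of a member at 0.764, and none had an unadjusted p under 0.05. The background was 0%: 0 of all genes passed with edgeR, 924 (5.64%) had an unadjusted p under 0.05, and DESeq2 called 16 genes and limma none. Log2 fold changes of the members were 5 positive and 4 negative, with a median of 0.05 beside -0.02 for all genes. No marker of other cells passed the threshold in the same comparison. The median log2 fold change was -2.43 for the epididymis list (4 of 4 tested genes with an unadjusted p under 0.05), -0.54 for 6 Leydig cell genes (2 under 0.05) and -0.79 for 5 blood genes (2 under 0.05). Their part in the members' values was not tested.

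Among the glycolytic members, Pgk2 stood at 873, 870 and 1165 CPM in the 3NC libraries and at 846, 905 and 967 in the knockdown libraries. The highest and the lowest library of the 6 were thus 1 of each group, and the log2 fold change was -0.10 (95% interval -0.37 to 0.18). Ldhc read 3288, 2635 and 3267 CPM in 3NC and 2887, 3343 and 3463 in knockdown, a log2 difference of 0.08 (interval -0.16 to 0.31). The lowest 3NC value was that of replicate 2, and the lowest knockdown value that of replicate 1, the pair with high white blood cell genes. Gapdhs read 1477, 950 and 1175 CPM in 3NC and 1193, 1481 and 1483 in knockdown, with a log2 fold change of 0.21 (interval -0.23 to 0.64). The only 3NC library of positive GC slope, replicate 1, was level with the top knockdown libraries, and with the slope as a covariate, an alternative chosen after the data were seen, the value was -0.05. Aldoart1 (-0.02) and Eno4 (0.06) were nearer to 0.

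Pdha2, of the complex that turns pyruvate into acetyl-CoA in the mitochondrion, differed by 0.05 (interval -0.16 to 0.26), the narrowest interval of the 9. Cox6b2 had the largest fold change of the comparison. It read 165, 94.8 and 136 CPM in 3NC and 156, 201 and 176 in knockdown, and the 2 groups overlapped. The difference was 1.35-fold (interval 0.969 to 1.87; log2 0.43, adjusted p = 0.764, edgeR). It was 0.16 on the log2 scale with the GC slope as a covariate and 0.33 without the pair of libraries high in white blood cell genes. Cyct read 64.8, 69.4 and 99.9 CPM against 64.2, 73.3 and 65.2, a log2 change of -0.21 that became 0.02 without 3NC replicate 3. Cox8c differed by -0.06. No member's groups were without overlap, a pattern seen in 11.3% of all genes tested.

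In the overexpression group against 5NC, none of the 9 passed either, with a smallest adjusted p of 0.333 (edgeR). Of all genes 51, or 0.311%, passed, 34 higher and 17 lower. An unadjusted p under 0.05 was found for Cox8c and Aldoart1, 2 of 9, beside 11.9% of all genes. That number was 0 when 5NC replicate 2 was left out, 0 when replicate 1 or replicate 2 of overexpression was, and 1 when 5NC replicate 3 was, but 3 when 5NC replicate 1 was left out or the GC slope entered as a covariate. The groups did not overlap for 3 of the 9, Aldoart1 and Pdha2 (higher) and Cox8c (lower), beside 21.3% of all genes. The members' median log2 fold change was 0.13, beside -0.01 for all genes.

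Cox8c read 280, 314 and 317 CPM in 5NC and 233, 254 and 251 in overexpression. Each overexpression library was below each 5NC library, and the fold was 0.81 (95% interval 0.679 to 0.967; adjusted p = 0.333, edgeR). Aldoart1 read 134, 137 and 145 CPM in 5NC against 163, 156 and 173, a fold of 1.18 (interval 1.01 to 1.39; adjusted p = 0.395, edgeR). Aldoa, the main somatic aldolase here, differed by a log2 of 0.21 (adjusted p = 0.391), close to the 0.24 of Aldoart1. Pdha2 read 205, 219 and 221 CPM in 5NC and 228, 237 and 242 in overexpression, a log2 difference of 0.13 (interval -0.08 to 0.35). Without 5NC replicate 2 and without 5NC replicate 3, the libraries highest in epididymis genes, the log2 values were -0.28 and -0.27 for Cox8c, 0.23 and 0.27 for Aldoart1 and 0.14 and 0.15 for Pdha2.

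Gapdhs, at 1254, 873 and 930 CPM in 5NC and 1428, 1496 and 1002 in overexpression, had the largest positive difference of the comparison, log2 0.36 (interval -0.08 to 0.80), and its groups overlapped. The lower values of each group were those of the libraries with negative GC slope, and the value was 0.24 with the slope as a covariate, 0.26 without 5NC replicate 2, 0.30 without 5NC replicate 3 and up to 0.54 with another library left out. Pgk2 read 767, 875 and 945 CPM against 920, 927 and 1046 (log2 0.16, and 0.08 to 0.23 with a library left out). Ldhc read 3356, 3034 and 3246 against 3379, 3354 and 3076, and its log2 value of 0.03 took the other sign under other scalings (-0.02 with total counts, -0.03 with RPKM), all close to 0. Cyct lay between 70.5 and 103 CPM in 5NC and between 62.8 and 83.9 in overexpression (log2 -0.33, interval -0.74 to 0.07). Cox6b2 had a value of 0.17 (interval -0.31 to 0.64), which was 0.03 with the slope as a covariate and ran from 0.06 to 0.35 with each library left out in turn. Eno4 stood at -0.04 (interval -0.39 to 0.31). Among germ cell markers, the median log2 fold change of 8 round spermatid genes was 0.31, with none past the threshold and 4 under an unadjusted p of 0.05, and that of 8 spermatocyte genes was -0.14, with 1 lower past the threshold. The same round spermatid list had a median of -0.26 in 5NC against 3NC, with 4 of 8 under an unadjusted p of 0.05, and the 5NC libraries are common to both comparisons. Of 8 elongating spermatid genes 3 had an unadjusted p under 0.05 (median 0.18). The epididymis markers had a median of -5.38 in overexpression against 5NC, with 4 of 4 tested genes under an unadjusted p of 0.05 and 1 lower past the threshold, and 2 of 5 blood genes were higher past it. Summed CPM of the round spermatid list was 1194 to 1345 in 5NC and 1393 to 1671 in overexpression, and no gene of the list was at 0 in every library. The part of these markers in the members' values was not tested.

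The vector controls, neither directed at lncRNA5251, were compared to give the size of a difference between control groups. They differ in vector, and the level of lncRNA5251 in them was not analysed. For 5NC against 3NC none of the members passed (smallest adjusted p 0.418, edgeR), while 21 of all genes, 0.128%, did. Aldoart1 read lower in 5NC by a log2 of -0.27 (interval -0.50 to -0.03; adjusted p = 0.418, edgeR) and Cox8c read higher by 0.28 (interval 0.03 to 0.54; adjusted p = 0.432). With a library left out the values ran from -0.37 to -0.16 for Aldoart1 and from 0.18 to 0.43 for Cox8c. The 5NC libraries are shared with the overexpression comparison, in which the same genes had values of 0.24 and -0.30, so these pairs of values are not independent. The ranges of the 2 control groups overlapped for every member, and were apart for 13% of all genes tested. Without the pair of libraries high in white blood cell genes, Aldoart1 stood at -0.37 (adjusted p = 0.0874) and Cox8c at 0.18, and the adjusted p of Aldoart1 over all alternatives did not go below that value. Markers of other cells had medians of -3.35 (white blood cells), -1.08 (macrophages) and 1.44 (epididymis) with none past the threshold, and 2 of 5 blood genes were lower past it, the opposite of overexpression against 5NC. Their part in the members' values was not tested.

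Whether the responses to the 2 lncRNA5251 viruses differed was tested by the difference of the effects, knockdown minus 3NC less overexpression minus 5NC. No member passed (adjusted p = 1 for all 9, edgeR), and 4 of all genes, 0.0244%, did. The values ran from -0.26 for Pgk2 (interval -0.65 to 0.13) and Aldoart1 (interval -0.59 to 0.07) to 0.26 for Cox6b2 (interval -0.41 to 0.94). In a joint test of any difference among the 4 groups none of the members passed, with Cox8c lowest at an unadjusted p of 0.0425 and an adjusted p of 0.418 (edgeR), beside 39 genes in all, 0.238%.

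**Figure D4:**
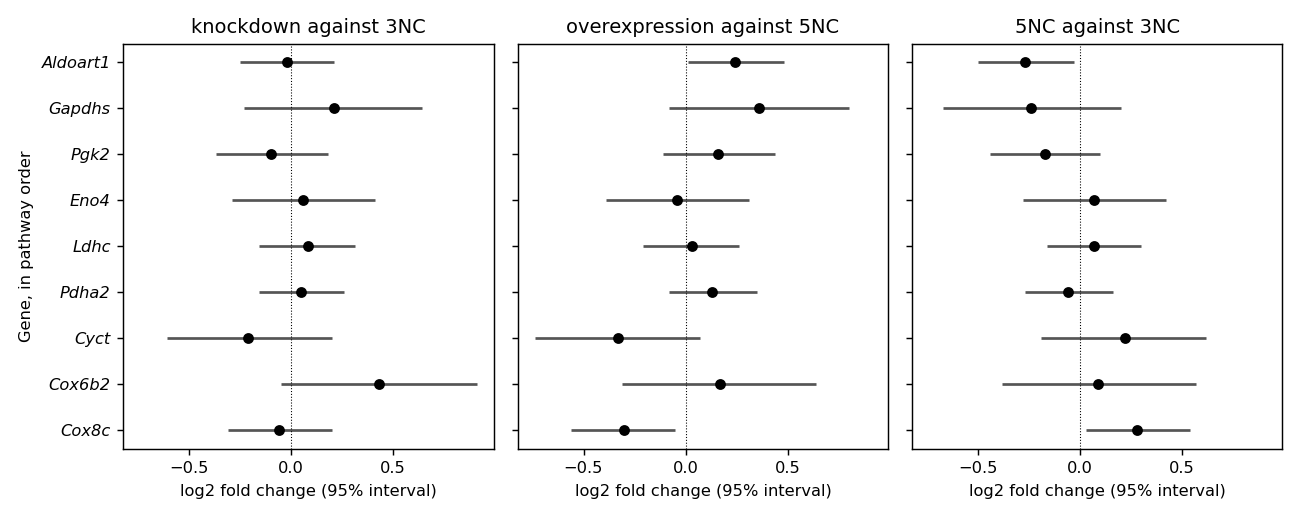
Log2 fold changes of the 9 genes in 3 comparisons (x axis, points) with 95% intervals (lines) from the edgeR quasi-likelihood fit over 12 libraries, genes in pathway order. Intervals leave 0 for Aldoart1 and Cox8c in overexpression against 5NC and in 5NC against 3NC, before adjustment over 16388 genes, and the widest interval is that of Cox6b2.

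The ratio of a testis form to its somatic forms does not depend on how a library is scaled. The log2 ratio of estimated reads (0.5 added to each side) was compared among the 4 groups by an exact permutation test over all 15400 divisions of the 12 libraries. None of the 9 families had an unadjusted exact p under 0.05. The lowest was that of Cox6b2 to Cox6b1 (exact permutation p = 0.333), with means of 1.99 ± 0.87 in 3NC, 2.83 ± 0.55 in knockdown, 2.18 ± 0.42 in 5NC and 2.63 ± 0.37 in overexpression (SD, n = 3 each). Ldhc to Ldha and Ldhb was the steadiest, with means of 1.56 ± 0.07 in 3NC, 1.59 ± 0.05 in knockdown, 1.53 ± 0.05 in 5NC and 1.60 ± 0.02 in overexpression (exact permutation p = 0.471). For Pgk2 to Pgk1 the SD was 1.36 in 3NC and 1.01 in knockdown but 0.10 in 5NC and 0.12 in overexpression (exact permutation p = 0.854). The 2 libraries with raised Pgk1 belong to the former groups.

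Between overexpression and 5NC, the ratios of Pgk2 (difference 0.34), Ldhc (0.07), Pdha2 (0.39) and Cyct (0.19) reached the smallest p that 3 against 3 libraries allow (exact permutation p = 0.1, two-sided). The smallest exact permutation p of a ratio was 0.3 in knockdown against 3NC (Cox6b2) and 0.5 in 5NC against 3NC (Ldhc). A share of such ratios over all genes was not computed. For the CPM of single genes, an unlike measure, the groups were apart in 21.3% of all genes in overexpression against 5NC. In the others that share was 11.3% and 13%, so the 4 of 9 are given as a description. For the Cyct ratio both sides read lower in overexpression, and Cycs was at 65.5, 103 and 88.6 CPM in 5NC and 51.1, 56.1 and 71.8 in overexpression (log2 -0.52, adjusted p = 0.342, edgeR). Without the pair of libraries high in white blood cell genes, the exact permutation p over the 4 groups was 0.0603 for Ldhc, 0.071 for Gapdhs and 0.107 for Cox6b2, the reported values being 0.471, 0.905 and 0.333.

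The other genes of the same pathways did not pass either. Of 25 further glycolysis genes 23 were tested, of 12 genes of the pyruvate dehydrogenase complex and its regulators 12, of 17 nuclear genes of cytochrome c and cytochrome c oxidase 15, and of 12 germ cell energy genes 12, with 0 higher and 0 lower in each comparison (edgeR, adjusted p under 0.05). Aldoart2 stands both in the first and in the last of these lists, and Cox7b2 both in the third and in the last. In knockdown against 3NC 1, 0, 0 and 0 of these genes had an unadjusted p under 0.05, beside 5.64% of all genes, and the median log2 fold changes were 0.04, -0.09, -0.03 and -0.06, in that order. The extremes were Eno2 (-0.65, adjusted p = 0.806), the neuronal enolase, with Aldoc, a brain-type aldolase, at the same rounded value, and Pgam2 (0.34), the muscle-type phosphoglycerate mutase. For the remaining lists they were Pdk1 (-0.28) and Pdp2 (0.15), a kinase and a phosphatase of pyruvate dehydrogenase, Cox6b1 (-0.41) and Cox5b (0.23), and Cox7b2 (-0.39), another testis subunit of cytochrome c oxidase, and Aldoart2 (0.21), another aldolase retrogene.

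In overexpression against 5NC the medians were 0.04, -0.02, -0.21 and -0.08, beside -0.01 for all genes. An unadjusted p under 0.05 was found for 3 of 23, 0 of 12, 5 of 15 and 2 of 12 genes of the lists, beside 11.9% of all genes. The nuclear respiratory list, whose median had the other sign (0.10) in 5NC against 3NC, a comparison that shares the 5NC libraries, ran from -0.66 (Cox7a1) to 0 (Cox6a1). Eno2 (-1.02) and Hk1 (0.38, adjusted p = 0.215, edgeR), a hexokinase with a form of its own in sperm, were the extremes of glycolysis. Pdk1 (-0.38) and Pdk4 (0.36), both kinases of pyruvate dehydrogenase, bounded their list, and Mpc1 (-0.40), a subunit of the mitochondrial pyruvate carrier, and Aldoart2 (0.32) bounded the last. Cox8c, at -0.30, and Cyct, at -0.33, lay inside the range of the nuclear respiratory genes, and Aldoart1 at 0.24 lay close to Aldoart2.

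For 5NC against 3NC 4, 1, 3 and 2 genes of the lists had an unadjusted p under 0.05, as did 10.8% of all genes, and the medians were -0.11, -0.04, 0.10 and 0.06. The extremes were Hk3 (-2.49, adjusted p = 0.466), a hexokinase of white blood cells, and Ldhb (0.21), Pdha1 (-0.36) and Pdk1 (0.41), Cox7b (-0.24) and Cox7a1 (0.66), and Slc16a7 (-0.26), a monocarboxylate transporter, and Slc2a3 (0.23), a glucose transporter. In the difference of the effects 0 of these genes passed as well.

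Across the 12 libraries the members did not move as 1 block. Of the 36 pairs, 23 had a positive and 13 a negative Pearson's r of log2 CPM, with a median of 0.17, and the libraries share scaling, base-composition slope and group, so these values are a description. Gapdhs and Cox6b2 were the most alike (r = 0.88, Spearman's rho = 0.85). Among the retrogenes r was 0.83 for Pdha2 and Aldoart1, 0.79 for Pgk2 and Aldoart1 and 0.74 for Pgk2 and Pdha2. Cyct went with Cox8c (0.79) and against Gapdhs (-0.71), and Ldhc with Cox6b2 (0.79). The pairs of Eno4 lay between -0.24 and 0.04.

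**Figure D5:**
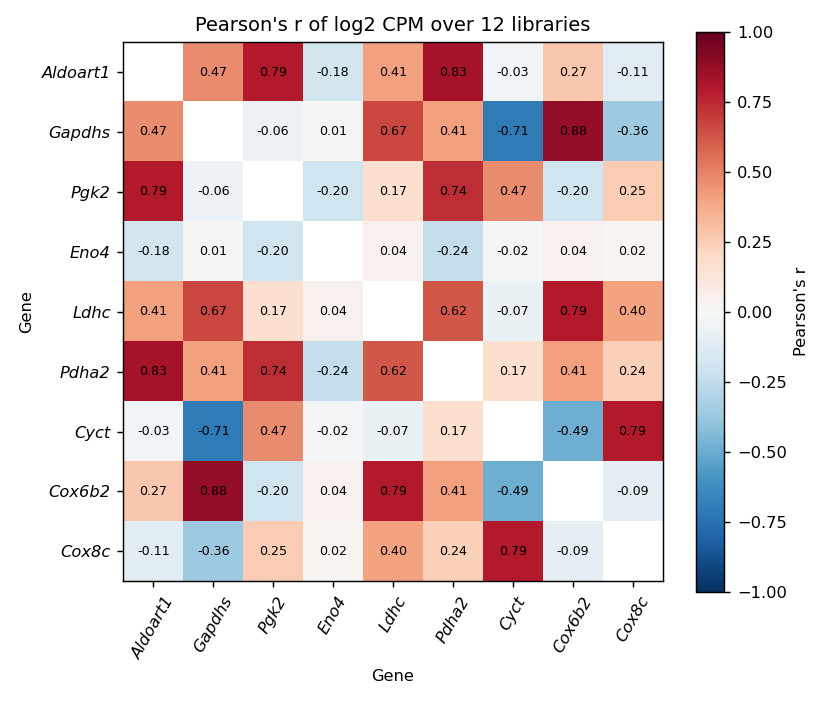
Pearson's r of log2 CPM over 12 libraries for each of the 36 pairs of testis forms, in pathway order; red is positive and blue negative, and each cell carries its value. The highest is 0.88, for Gapdhs with Cox6b2, and the lowest -0.71, for Gapdhs with Cyct.

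The genes outside the set whose profile was most like the mean of the scaled members, among 9865 with a mean of at least 10 CPM, were Gtf2a1l (r = 0.95), a germ cell form of a general transcription factor subunit, Cdk5rap2 (0.94), a centrosome protein, Mael (0.92), a protein of the piRNA pathway, 4933415F23Rik (0.92) and Spesp1 (0.92), an equatorial segment protein of sperm. They were chosen for this likeness over 12 libraries. The mean scaled level of the members was lowest in the pair of libraries high in white blood cell genes. It was -1.17 in 3NC replicate 2 and -0.67 in knockdown replicate 1, and between -0.41 and 0.7 in the others. The part of that pair in these r values was not tested. Gtf2a1l ran from 207 to 279 CPM and Mael from 1173 to 1506 CPM.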

How the data were processed

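Testis RNA of 12 libraries in 4 groups was sequenced on an Illumina HiSeq instrument after oligo(dT) enrichment of messenger RNA according to the methods, whereas the labels name total RNA. The authors aligned reads to reference genes with SOAPaligner (build mm10 per the labels) and deposited an estimated count of reads and an RPKM value per gene and library. The sources used here do not say whether counting used strand. Of the 20788 genes, 3588 (17.3%) had a fractional estimated count in a library, judged with a tolerance of 0.001, and counts were rounded. The table's 18 per-sample columns of other samples were not used, nor were columns of group averages.

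Groups and replicate numbers came from the sample titles. Counts were filtered with filterByExpr (16388 genes kept, all 9 members and 13 of the 14 somatic forms among them), scaled by TMM and fitted over all 12 libraries with edgeR 4.0.16 in R 4.3.3 (glmQLFit, glmQLFTest), with Benjamini-Hochberg adjustment over all genes at 0.05. CPM use TMM library sizes. The GC slope of a library was fitted over 10877 of 11114 genes (97.9%) with a mean of at least 100 reads. Exact permutation tests were two-sided or, for 4 groups, on the F statistic, run with numpy 2.4.6 and pandas 2.3.3. Promoter windows and gene spans came from RefSeq (GRCm38.p6). The fits were also run on simulated counts with known changes, drawn independently for each gene, and the outcome is not given here. Those counts held no GC slope and no marker differences between libraries, so that run cannot show how the fits behave under them. Alternatives used RLE factors, total counts, no filter, a replicate block, DESeq2 1.42.0, limma 3.58.1 on log2 CPM and log2 RPKM, other pseudocounts, stricter thresholds and omitted libraries.

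A pair of genes of the lists is not reported here and was left out of the families and list counts after the first analysis. The members and lists were chosen with earlier results of these data known. Genes named were the members, their somatic forms, the genes of each pathway list that passed or else the highest and lowest of the list, and the 5 genes of a mean of at least 10 CPM most like the members. Counts carry counting error beside the spread between libraries, and at this depth every member except Eno4 had at least 62.8 CPM in each library.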

Additional observations from a re-analysis of the deposited data

How the results depend on the processing

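The number of members called was 0 in every comparison under every alternative run, including each library left out. The number of all genes called was less stable. In overexpression against 5NC it was 51 in the reported fit, 313 with DESeq2 and 144 with the GC slope as a covariate. Without the pair of libraries high in white blood cell genes it was 159. It was 107 with only the 6 libraries compared and 21 with a replicate block. With a library left out it ran from 9, without 5NC replicate 2 or replicate 3, to 87, without 3NC replicate 3. In 5NC against 3NC it was 21 in the reported fit, 166 with DESeq2, 104 with the GC slope, 45 without the pair of libraries, 5 with a replicate block, 7 with only the 6 libraries compared and 3 to 35 with a library left out. For any difference among the 4 groups it was 39, with 572 by DESeq2, 91 with the GC slope, 7 with a replicate block and 6 to 81 with a library left out. For the difference of the effects it was 4, with 42 by DESeq2 and 2 to 10 with a library left out, and in knockdown against 3NC 0, with 16 by DESeq2 and up to 12, without 3NC replicate 3. Replicate numbers did not pair the libraries (correlations of same-numbered deviations between -0.64 and 0.39). With the replicate block the Cox6b2 value in knockdown against 3NC was 0.46. The members' medians with that block were 0.05 and 0.13 in the 2 lncRNA5251 comparisons. In knockdown against 3NC the members' median was -0.03 without the pair of libraries, and -0.06 to 0.09 with a library left out. In overexpression against 5NC it was 0.03 with the GC slope and 0.06 to 0.14 with a library left out.

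Some log2 fold changes changed sign, with no call on either side, and the cause was not tested. In knockdown against 3NC, with the GC slope as a covariate (chosen after seeing the data), Pgk2 stood at 0.02, Gapdhs at -0.05, Aldoart1 at 0.00 and Cyct at 0.02, and without the pair of libraries Pdha2 stood at -0.03. In overexpression against 5NC Ldhc stood at -0.02 with total counts, -0.03 in each fit on log2 RPKM and -0.01 with the GC slope. In 5NC against 3NC without the pair of libraries Ldhc stood at -0.03 and Cox6b2 at -0.10, and the median of the members at -0.10. With each library left out in turn, the values in knockdown against 3NC ran from -0.02 to 0.15 for Ldhc, -0.06 to 0.15 for Pdha2, -0.17 to 0.07 for Pgk2, -0.04 to 0.16 for Eno4, -0.13 to 0.09 for Aldoart1, -0.32 to 0.02 for Cyct and -0.16 to 0.09 for Cox8c, and kept their sign for Cox6b2 (0.24 to 0.63) and Gapdhs (0.06 to 0.39). In overexpression against 5NC they ran from -0.02 to 0.08 for Ldhc, -0.17 to 0.08 for Eno4 and, with no change of sign, 0.26 to 0.54 for Gapdhs and 0.08 to 0.23 for Pgk2. In 5NC against 3NC they ran from -0.03 to 0.13 for Ldhc, -0.10 to 0.29 for Cox6b2, -0.17 to 0.05 for Pdha2, -0.06 to 0.17 for Eno4 and -0.42 to -0.06 for Gapdhs. For the difference of the effects they ran from -0.34 to 0.02 for Gapdhs, -0.05 to 0.13 for Ldhc, -0.20 to 0.02 for Pdha2, -0.04 to 0.23 for Eno4, -0.34 to -0.10 for Pgk2, -0.37 to -0.16 for Aldoart1 and 0.07 to 0.46 for Cox6b2. No exact permutation p of a testis to somatic ratio was under 0.05 in any alternative.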
